A study of Homo sapiens with 2 samples.

Results

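Metallothioneins are small cysteine-rich proteins that bind zinc and copper. The 9 genes described here, MT2A, MT1A, MT1B, MT1E, MT1F, MT1G, MT1H, MT1M and MT1X, were taken by symbol from the 36601 genes listed for each library, and all 9 were found once. The family was picked with the CNT and 3CK levels of its paralogs in epithelial and mesenchymal cells known, so those levels are given as a description, with no test. The data were UMI counts (unique molecular identifiers, 1 per captured transcript molecule) from single cells of colon organoids made from 1383D6, an induced pluripotent stem cell line of human origin. There were 2 libraries, 1 per condition: CNT, the control without cytokines, and 3CK, in which the organoids received the inflammatory cytokines IL-1β, TNF-α and IFN-γ together over 8 days, at doses the labels do not give. Both followed the same protocol with the same line, which used Activin A, Y-27632, FGF2, EGF, Forskolin, PD98059, 5-Aza-2'-Deoxycytidine and an agent named A-83 where the label breaks off. About 8300 cells were loaded per library. The line stands for 1 genetic background, and with 1 library per condition no difference between CNT and 3CK could be set against the spread between replicates. Every interval below is a 95% interval that covers counting error only.

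The zinc-sensing transcription factor MTF1 activates metallothionein genes by binding short metal response elements in their promoters, so that the proteins are made when free zinc or other metals increase. Glucocorticoids, oxidative stress and inflammatory signals through STAT3 are further known inducers. MT2A is the member made in most tissues, whereas the MT1 genes differ from tissue to tissue and are prominent in liver, kidney and intestine. The MT1 paralogs are nearly identical in sequence, so the split of counts between them depends on how the authors' aligner assigned reads, and a comparison of 1 paralog with another is less certain than the family sum.

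All 9 genes lie in 1 cluster of 75.6 kb on chromosome 16, at chr16:56608584-56684196 (GRCh38, GENCODE gene models). In order they are MT2A, MT1E, MT1M, MT1A, MT1B, MT1F, MT1G, MT1H and MT1X, and MT1G alone is on the minus strand. Promoters of 4 of the 9 members were matched in the RefSeq table (GRCh38.p14): MT2A, MT1B, MT1H and MT1X. MT1A, MT1E, MT1F, MT1G and MT1M were not matched. The 250 bases before the start of each matched gene are shown because they hold matches to the metal response element core defined below. All 4 matched members are shown, so they were not chosen by their levels. They are chr16:56608334-56608583 for MT2A, chr16:56651636-56651885 for MT1B, chr16:56669564-56669813 for MT1H and chr16:56682220-56682469 for MT1X. All are on the plus strand and read 5′ to 3′, with capitals for matches to the metal response element core, TGCACNC or TGCGCNC on either strand.
MT2A: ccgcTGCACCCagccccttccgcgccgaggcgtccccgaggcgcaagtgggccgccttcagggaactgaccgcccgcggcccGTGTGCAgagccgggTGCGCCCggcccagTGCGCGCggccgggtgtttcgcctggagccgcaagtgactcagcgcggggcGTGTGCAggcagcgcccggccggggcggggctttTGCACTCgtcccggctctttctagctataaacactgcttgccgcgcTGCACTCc
MT1B: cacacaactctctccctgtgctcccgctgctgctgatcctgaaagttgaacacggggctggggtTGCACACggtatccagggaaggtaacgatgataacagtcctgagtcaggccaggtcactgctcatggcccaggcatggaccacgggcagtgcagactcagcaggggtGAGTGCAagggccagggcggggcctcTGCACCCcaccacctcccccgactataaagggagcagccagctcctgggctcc
MT1H: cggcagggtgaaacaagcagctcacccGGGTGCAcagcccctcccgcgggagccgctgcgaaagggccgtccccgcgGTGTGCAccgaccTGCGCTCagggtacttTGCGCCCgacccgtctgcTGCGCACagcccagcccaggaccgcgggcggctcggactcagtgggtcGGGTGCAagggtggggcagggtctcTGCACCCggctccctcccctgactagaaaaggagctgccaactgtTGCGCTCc
MT1X: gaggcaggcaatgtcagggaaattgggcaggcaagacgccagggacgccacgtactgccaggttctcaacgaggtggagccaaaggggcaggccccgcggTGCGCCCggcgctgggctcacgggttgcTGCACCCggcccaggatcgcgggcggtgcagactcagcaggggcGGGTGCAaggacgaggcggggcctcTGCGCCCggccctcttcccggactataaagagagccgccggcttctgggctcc

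The core matched 7 times before MT2A, 8 times before MT1H, 4 times before MT1X and 3 times before MT1B, and no matches overlapped. Among 35116 promoters of the same length, 24.8% held at least 1 match, 1.58% at least 3 and 0.370% at least 4. MT1B thus had the fewest of the 4 and MT2A and MT1H the most, and of these MT2A was higher and MT1H lower in 3CK epithelial cells, as given below. A match to the STAT dimer site TTCNNNGAA, which reads the same on both strands, was found once before MT2A and not before the other three, and 6.57% of all promoters held one. The GC box GGGCGG, searched on both strands, matched 2 times before MT2A and MT1X and 1 time before MT1B and MT1H, and 42.6% of all promoters held at least 1. The MT1B promoter had 7 CG dinucleotides, against 32 for MT2A and 22 each for MT1H and MT1X (median over all promoters 11). These matches describe the letters in the window and are not measured binding sites.

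After filtering, 2487 CNT cells and 1398 3CK cells remained, with 101582054 and 91863865 UMIs and a median of 28895 and 62746 UMIs per cell. No barcode was shared. Levels are given as CPM, the UMIs of a gene per 1000000 UMIs, summed over the cells of a class. Since each UMI is 1 molecule, these levels are not scaled by gene length. Comparisons between MT1 paralogs carry the uncertainty in read assignment given above. Epithelial cells were those with at least 2 EPCAM UMIs per 10000 (1655 in CNT, 66.5%, and 1016 in 3CK, 72.7%). Mesenchymal cells were those with at least 5 UMIs per 10000 of the collagens COL1A1, COL1A2 and COL3A1 and under 1 of EPCAM (577, 23.2%, and 124, 8.87%), and the other 255 and 258 cells met neither rule. The libraries are titled as colon epithelial cells. The intestinal and hindgut markers CDH17 and CDX2 were at 302 and 80.1 CPM in CNT epithelial cells, while SLC26A3 and CA1 of mature colonocytes were at 6.34 and 0.685 CPM. The liver-type marker TTR was at 64864 CPM in CNT epithelial cells and 19494 CPM in 3CK epithelial cells, and the part of this change in cell make-up in the values below was not tested.

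In CNT epithelial cells the family as a whole was at 1985 CPM (1975 to 1996), and the liver- and gut-type paralogs led it. MT1G was at 495 CPM (490 to 500.3), MT1H at 478 CPM (473 to 483) and MT2A at 374 CPM (370 to 379). MT1E at 180 CPM (177 to 183) and MT1F at 175 CPM (172 to 178) had overlapping intervals, followed by MT1X at 161 CPM and MT1M at 92.8 CPM. MT1B was at 27.4 CPM and MT1A at 2.15 CPM. MT1A, with 163 UMIs in 1655 cells, was the least abundant member. In 3CK epithelial cells the sum was 4089 CPM (4074 to 4104), 2.06 times that of CNT, and the order had changed: MT2A came first at 2445 CPM, ahead of MT1H at 392, MT1G at 373, MT1E at 327, MT1M at 255, MT1F at 146, MT1X at 138, MT1B at 9.83 and MT1A at 2.75 CPM. No neighbours in that 3CK order had overlapping intervals.

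**Figure D1:**
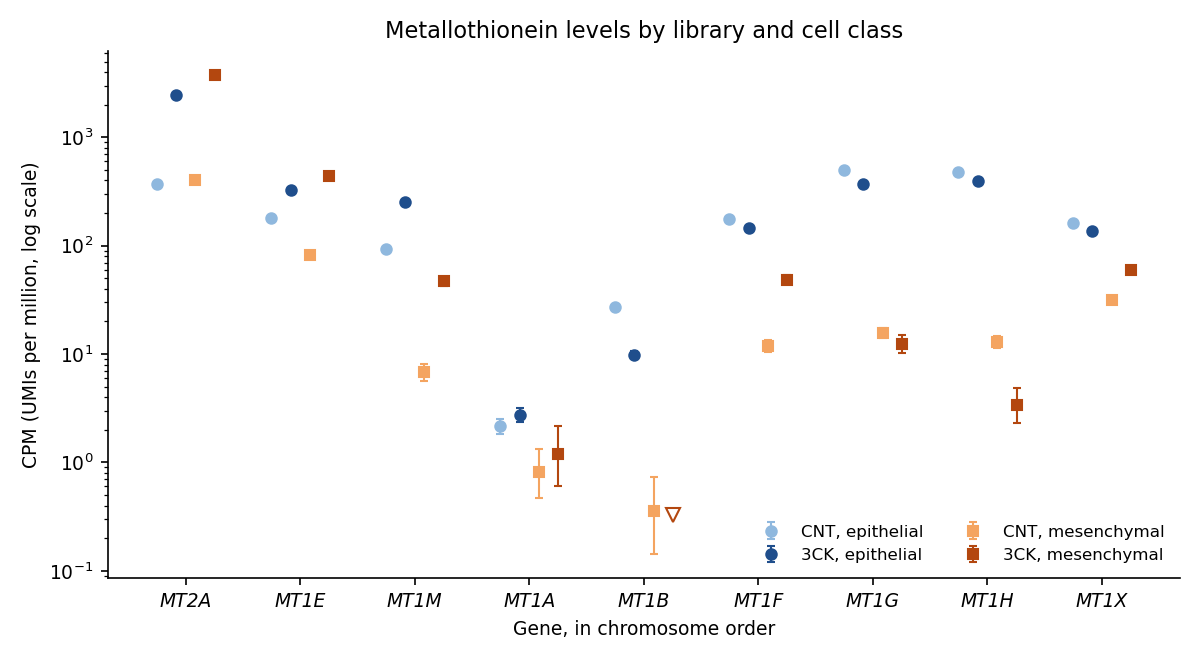
Level of each metallothionein in CPM (log scale), with genes in chromosome order; points are the sums over epithelial cells (circles) and mesenchymal cells (squares) of the CNT (light) and 3CK (dark) library, bars are 95% Poisson intervals, many smaller than the point, and the open triangle marks a count of 0 drawn at the floor of 3 UMIs. MT2A stood at 374 and 402 CPM in CNT and at 2445 and 3747 CPM in 3CK, while MT1G and MT1H stayed below 16 CPM in mesenchymal cells of both libraries.

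MT2A, the broadly made metallothionein, was the member with the largest difference between the libraries. Over all kept cells its level was 368 CPM in CNT against 2710 CPM in 3CK, a log2 ratio of 2.88 (2.87 to 2.90). In epithelial cells the log2 ratio was 2.71 (2.69 to 2.73), a 6.54-fold difference, and in mesenchymal cells, from 402 to 3747 CPM, it was 3.22 (3.19 to 3.26), a 9.33-fold difference. In the 3CK library MT2A alone made up 0.271% of all UMIs, against 0.0368% in CNT. The difference was spread over cells: with each epithelial cell thinned to 5000 UMIs, an MT2A UMI was present in 31.0% of 1060 cells in CNT (28.3 to 33.9) and in 82.6% of 776 cells in 3CK (79.7 to 85.2), and without thinning the shares were 56.3% of 1655 and 96.1% of 1016 cells. In mesenchymal cells the thinned shares were 48.1% of 320 (42.5 to 53.8) and 89.7% of 107 (82.3 to 94.8).

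MT1M and MT1E, MT1-type zinc binders, were also higher in 3CK. MT1M levels were 92.8 CPM (CNT) and 255 CPM (3CK) in epithelial cells, a log2 ratio of 1.46 (1.42 to 1.50). Its thinned share of epithelial cells was 12.3% in CNT (10.3 to 14.4) and 25.1% in 3CK (22.1 to 28.3). MT1E was at 180 and 327 CPM, a log2 ratio of 0.86 (0.83 to 0.90), with thinned shares of 27.5% (24.8 to 30.2) and 45.4% (41.8 to 48.9). MT1A was at 2.15 and 2.75 CPM (log2 ratio 0.36, 0.05 to 0.67), from 163 and 193 UMIs. Its log2 ratio was 2.12 with each cell given equal weight, and 0.04 without the 1% of epithelial cells with the most metallothionein UMIs.

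The remaining members were lower in 3CK epithelial cells. MT1G levels were 495 and 373 CPM (log2 ratio -0.41, -0.43 to -0.39). MT1H was at 478 and 392 CPM (-0.29, -0.31 to -0.26), and without the 1% of epithelial cells with the most metallothionein UMIs its log2 ratio was -0.01. MT1F was at 175 and 146 CPM (-0.26, -0.30 to -0.22), and MT1X at 161 and 138 CPM (-0.22, -0.26 to -0.19). The thinned share of cells with a UMI was lower in 3CK for MT1F (39.6%, 36.7 to 42.6, against 29.9%, 26.7 to 33.3) and for MT1X (29.8%, 27.1 to 32.7, against 23.1%, 20.1 to 26.2). Those of MT1G (25.0%, 22.4 to 27.7, against 23.7%, 20.8 to 26.9) and MT1H (18.5%, 16.2 to 21.0, against 20.2%, 17.5 to 23.2) had overlapping intervals. Over all kept cells the log2 ratios were -0.30 for MT1G, -0.16 for MT1H, -0.10 for MT1F and -0.09 for MT1X, and each of them was above 0 under 1 of 9 alternatives: 0.06 for MT1G and 0.46 for MT1H without the top 1% of cells, 0.06 for MT1F with equal weight per cell, and 0.0001 for MT1X with TMM scaling.

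MT1B levels were 27.4 CPM (CNT) and 9.83 CPM (3CK) in epithelial cells, a log2 ratio of -1.48 (-1.61 to -1.36). That value rested on very few cells. A single CNT cell, with 122309 UMIs in all, held 860 of the 2082 MT1B UMIs (41.3%), and a single 3CK cell, with 180179 UMIs, held 425 of 689 (61.7%). Without those cells MT1B levels were 16.1 and 3.78 CPM. Its thinned share was 0.943% of CNT (0.453 to 1.73) and 1.29% of 3CK epithelial cells (0.620 to 2.36). Over all kept cells the log2 ratio of -1.26 turned to 0.50 when each cell had equal weight.

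Counted against other genes, 8 of the 9 members reached 10 CPM in at least 1 library over all kept cells. MT1B passed only through CNT, and MT1A did not pass. Of the 8, MT2A, MT1M and MT1E were at least 2-fold higher in 3CK, where 6.43% of the 10262 genes that passed were, and MT1B was at least 2-fold lower, where 7.41% were. In epithelial cells 2 of 8 members were 2-fold higher (7.9% of 9788 genes) and 1 lower (7.66%). In mesenchymal cells 4 of the 7 that passed, MT2A, MT1M, MT1E and MT1F, were 2-fold higher (4.79% of 10272 genes) and MT1H was lower (9.58%), with MT1M passing only through 3CK and MT1H only through CNT. The members were chosen on this contrast, so nothing is read from these counts.

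The levels of the members in epithelial and mesenchymal cells, which were known when the family was picked, are given as a description. In CNT, MT1H was 37.1-fold, MT1G 31.5-fold, MT1F 14.7-fold, MT1M 13.7-fold and MT1X 5.17-fold higher in epithelial cells, MT1E was 2.18-fold higher, and MT1B was 27.4 against 0.356 CPM. MT2A was nearly level, at 374 against 402 CPM, a log2 ratio of -0.10 that became 0.28 under TMM scaling and 0.01 with another total. MT1G in mesenchymal cells was at 3.17% of its epithelial level in CNT and 3.36% in 3CK, and MT1H at 2.69% and 0.868%. The hepatic transcripts TTR, APOA2, AFP and ALB were at 2.18% to 4.15% of their epithelial level in CNT mesenchymal cells and 0.934% to 2.91% in 3CK, so MT1G, MT1H and, at 1.30%, MT1B were within or below that range in CNT, and MT1G was above it in 3CK. MT1X at 19.4%, MT1M at 7.29% and MT1F at 6.81% of the epithelial level were above it in CNT. The 3CK mesenchymal MT1G level rested on 114 UMIs, of which 2 of 124 cells held 59.6%, so its place above the range depended on few cells.

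In mesenchymal cells the difference between the libraries was larger and took in more members. The family sum was 564 CPM (CNT) against 4363 CPM (3CK), a log2 ratio of 2.95 (2.92 to 2.98) against 1.04 (1.03 to 1.05) in epithelial cells. MT1E levels were 82.3 and 443 CPM (2.43, 2.35 to 2.51), MT1M 6.77 and 47.1 CPM (2.80, 2.51 to 3.09), MT1F 11.9 and 48.5 CPM (2.03, 1.79 to 2.26) and MT1X 31.2 and 59.5 CPM (0.93, 0.76 to 1.10). MT1F and MT1X were thus on opposite sides of 0 in the 2 classes, with thinned mesenchymal shares of 4.06% (2.18 to 6.85) and 15.0% (8.80 to 23.1) for MT1F and of 11.3% (8.00 to 15.2) and 21.5% (14.1 to 30.5) for MT1X. The sizes depended on the weighting of cells: with equal weight per cell the mesenchymal log2 ratios were 0.11 for MT1F, 0.19 for MT1X, 0.46 for MT1M and 1.92 for the sum. One 3CK mesenchymal cell, with 209802 UMIs in all, held 13.1% of the MT2A and 15.8% of the MT1F UMIs of its class. Another, with 136881 UMIs, held 24.0% of the MT1M UMIs. MT1A had 16 and 11 UMIs (0.57, -0.69 to 1.77), too few to give a direction. MT1G was at 15.7 and 12.5 CPM (-0.33, -0.65 to -0.02, above 0 under 3 of 10 alternatives), and MT1H at 12.9 and 3.40 CPM (-1.92, -2.51 to -1.38). The hepatic TTR was at 1412 and 238 CPM in mesenchymal cells, and its part in the lower MT1H value was not tested. MT1B had 7 UMIs in CNT and 0 in 3CK mesenchymal cells, where a count of 0 allows 0.329 CPM. Only MT2A and MT1E were above their epithelial level in 3CK mesenchymal cells, at 153% and 136% of it.

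**Figure D2:**
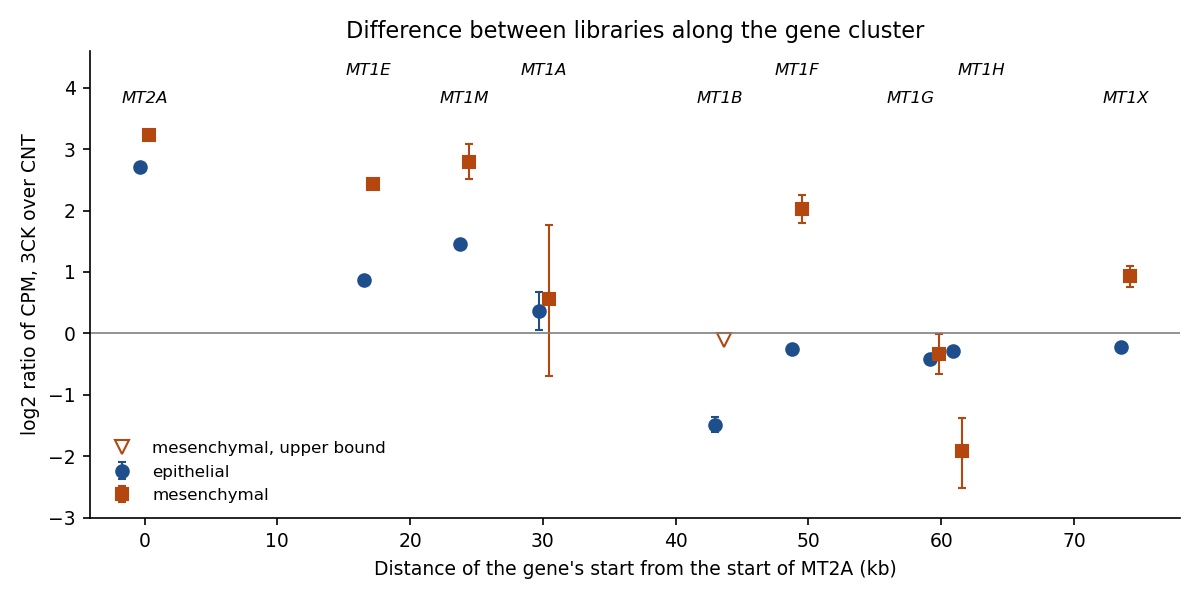
Log2 ratio of 3CK over CNT for each member against the distance of its start from the start of MT2A in kb, for epithelial (circles) and mesenchymal cells (squares), with 95% counting intervals; the open triangle is an upper bound from a count of 0. The points of the 4 genes at the MT2A end lie above 0 in both classes, with the mesenchymal MT1A interval crossing 0, and beyond them the epithelial points lie between -1.48 and -0.22 while MT1F and MT1X in mesenchymal cells lie at 2.03 and 0.93.

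The direction of the summed epithelial values followed the order of the genes on the chromosome, with the sign of MT1A uncertain. The 4 genes at the MT2A end (MT2A, MT1E, MT1M and MT1A, up to 30.1 kb from the start of MT2A) had log2 ratios of 2.71, 0.86, 1.46 and 0.36. The 5 from MT1B on (43.3 to 73.9 kb) had -1.48, -0.26, -0.41, -0.29 and -0.22. In mesenchymal cells that split was not present, since MT1F and MT1X were above 0. Among genes flanking the cluster within 300 kb and at 10 CPM or more over all kept cells, NUDT21 and OGFOD1 on the MT2A side had log2 ratios of -0.16 and 0.41, and NUP93 and HERPUD1 on the MT1X side had 0.14 and -0.24. The brain-type metallothionein MT3, in the same region, had 42 and 39 UMIs, MT4 had 2 and 1, and the MT1H-like copy MT1HL1 had 30 and 18.

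The make-up of the family, which does not depend on how the libraries are scaled, differed accordingly. In epithelial cells MT2A gave 18.8% of the metallothionein UMIs in CNT (18.6 to 19.0) and 59.8% in 3CK (59.6 to 60.0). MT1G was 24.9% and 9.11% of the family and MT1H 24.1% and 9.58%, while MT1E was 9.05% and 8.00% and MT1M 4.67% and 6.23%. In mesenchymal cells MT2A was the main member in both libraries, at 71.3% (70.4 to 72.1) and 85.9% (85.5 to 86.2), and MT1E came next at 14.6% and 10.2%.

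**Figure D3:**
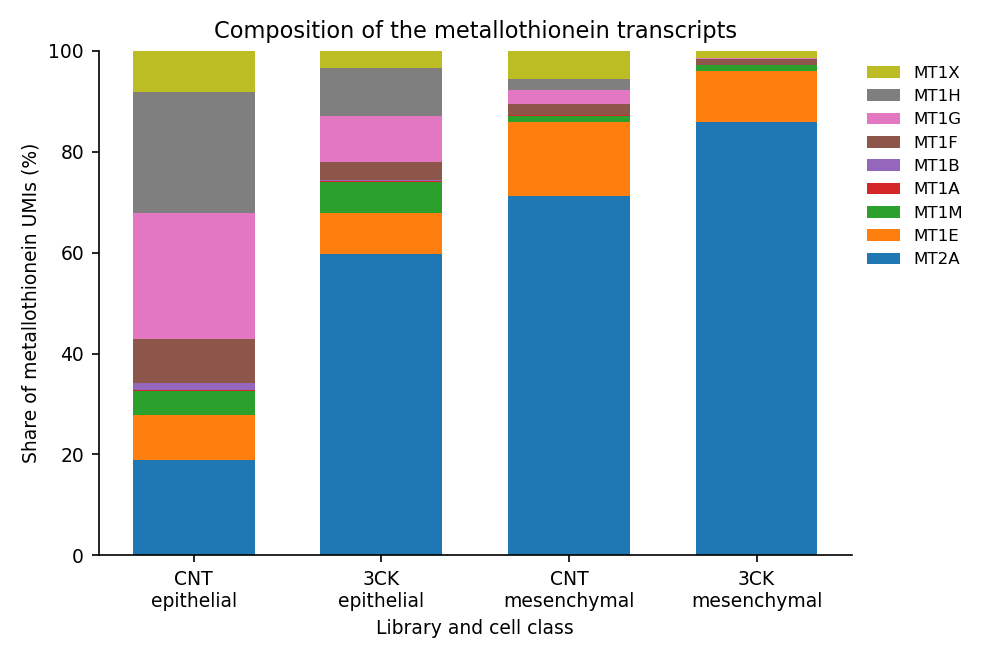
Share of each member among all metallothionein UMIs in percent, as stacked bars for epithelial and mesenchymal cells of each library. MT2A takes 18.8% of the CNT and 59.8% of the 3CK epithelial bar, and MT1G and MT1H are wide only in the CNT epithelial bar.

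Metallothionein UMIs were unevenly held by cells, and the members differed in how unevenly. In CNT epithelial cells 13 of 1655 cells held 50% of the MT1H UMIs, 17 held 50% of MT1G, 18 of MT1M, 31 of MT2A, 49 of MT1E and 96 of MT1F. In 3CK, out of 1016 cells, the numbers were 12 for MT1H, 13 for MT1G, 19 for MT1M, 76 for MT2A, 52 for MT1E and 48 for MT1F. MT2A was therefore more widely held in 3CK, with 7.48% of cells giving 50% of its UMIs against 1.87% in CNT, whereas MT1G (1.28% against 1.03%) and MT1H (1.18% against 0.785%) were concentrated in both. In cells of at least 10000 UMIs thinned to that depth, the median MT2A count per epithelial cell was 0 in CNT and 9 in 3CK, and 14.2% and 64.4% of cells had 5 or more. The median MT1G count was 0 in both, and 13.0% and 11.6% of cells had 5 or more.

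**Figure D4:**
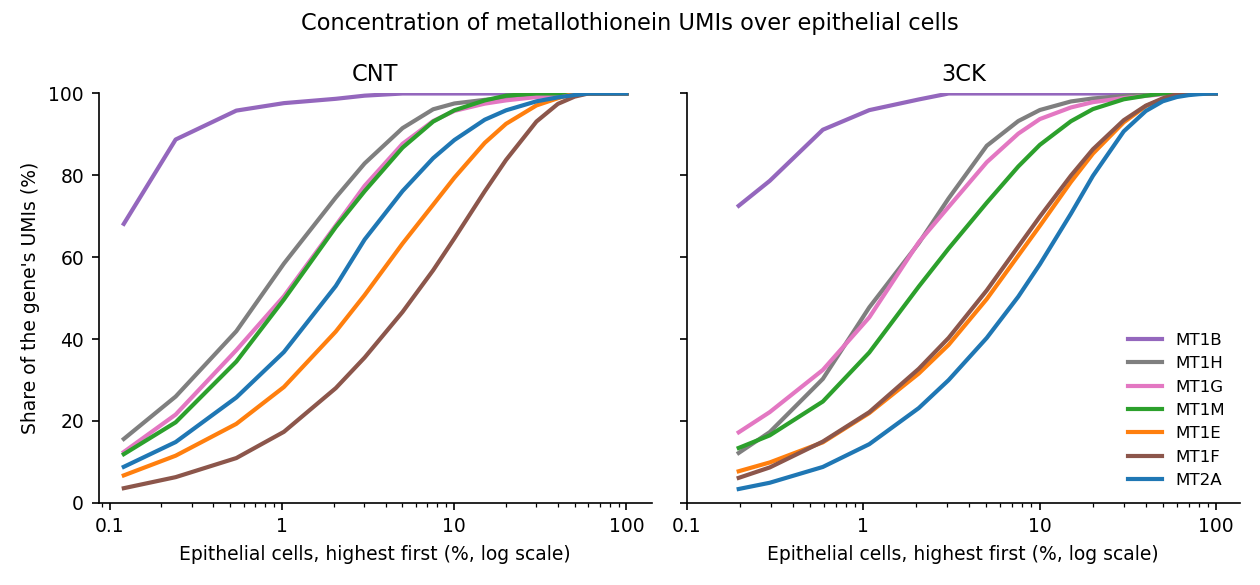
Share of a gene's UMIs in percent held by the epithelial cells with the most of it, against the percent of cells counted from the highest (log scale), for CNT (left) and 3CK (right). At about 1% of cells the curves stand at 50.5% for MT1G, 58.5% for MT1H and 36.8% for MT2A in CNT, and at 45.3%, 47.8% and 14.3% in 3CK.

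Per cell, the family sum in epithelial cells of at least 10000 UMIs had a median of 2.41 UMIs per 10000 in CNT (1011 cells) and 13.2 in 3CK (730 cells), with 95th percentiles of 83.5 and 145. A range of high cells, at 100 or more metallothionein UMIs per 10000, was set after the values were seen. It took 40 CNT epithelial cells (3.96%, 2.84 to 5.35) and 57 in 3CK (7.81%, 5.97 to 10.0), with 60 and 111 cells between 50 and 200 per 10000, so it cuts through a continuum and is not a cell type. These cells held 58.3% and 49.6% of the family's UMIs. No CNT mesenchymal cell was in the range (0 of 311, which allows up to 0.965%), and 9 of 106 were in 3CK (8.49%, 3.96 to 15.5). The high CNT epithelial cells carried MT1H at 8083 CPM, MT1G at 7673 CPM and MT2A at 4390 CPM, whereas those of 3CK carried MT2A at 9742 CPM, MT1H at 3460 CPM and MT1G at 3221 CPM.

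The range was cut on the sum of the members, so their levels inside it are a description only. High cells had somewhat more UMIs than the others (median 80379 against 69376 in CNT, 108983 against 92933 in 3CK), and their median hepatic marker sums were 848 against 915 UMIs per 10000 in CNT and 259 against 218 in 3CK. The absorptive marker sum was 47.4 against 16.7 per 10000 in CNT and 6.97 against 6.84 in 3CK. Most of the CNT sum was APOA4, at 8583 CPM in high and 4773 CPM in other cells (log2 ratio 0.85). FABP1 (0.08) was also higher in high CNT cells, but FABP2 (-0.89), RBP2 (-0.26), VIL1 (-0.22) and SLC26A3 (-1.24) were lower, and CA1 had 0 UMIs. The median log2 ratio of the listed markers at 10 CPM or more was -0.22 in CNT and -0.60 in 3CK. The part of these differences was not tested. The zinc exporter SLC30A2, singled out after its values were seen, was at 29.5 CPM in high and 7.19 CPM in other CNT epithelial cells (log2 ratio 2.04, 1.71 to 2.35), and at 5.57 and 0.891 CPM in 3CK (2.64, 2.00 to 3.27). In cells thinned to 10000 UMIs, 25.0% of high CNT cells (12.7 to 41.2) and 6.18% of the others (4.75 to 7.88) held an SLC30A2 UMI. In 3CK the shares were 5.26% of 57 high cells (1.10 to 14.6) and 0.892% of 673 others (0.328 to 1.93), with overlapping intervals, and 1 cell held 9 of the 36 SLC30A2 UMIs of the high cells. The plasma membrane zinc exporter SLC30A1, a textbook MTF1 target, was at 54.6 and 38.7 CPM in CNT (log2 ratio 0.50, 0.27 to 0.71), and at 37.0 and 32.9 CPM in 3CK (0.17, -0.03 to 0.36), where the interval crossed 0. The listed zinc exporters as a set did not share the SLC30A2 difference. Of 8 at 10 CPM or more in CNT, 1 was 2-fold higher in high cells and 0 lower (median 0.02). Of 6 in 3CK, 0 were higher and 1 lower (median -0.45). Among all other genes at 10 CPM or more, 1.27% were 2-fold higher and 2.09% lower in high CNT cells. In 3CK these shares were 0.273% and 8.49%.

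Across the same deep epithelial cells, thinned to 10000 UMIs, the members were correlated with each other, as a description of cells that share a library. MT1G and MT1H, next to each other on the chromosome and on opposite strands, had the highest Pearson correlation of log(UMIs + 1), 0.88 over 1011 CNT cells and 0.87 over 730 3CK cells. In CNT the correlations of MT2A with the other 6 abundant members ran from 0.60 with MT1F to 0.73 with MT1G and MT1E. In 3CK MT2A was at 0.67 with MT1E, 0.53 with MT1M and 0.44 to 0.47 with MT1F, MT1G, MT1H and MT1X, while MT1M and MT1G were at 0.79. In mesenchymal cells the pair MT1E and MT2A had 0.46 in CNT (311 cells) and 0.61 in 3CK (106 cells). Among 2543 other genes at 50 CPM or more, the 10 most like the family sum in both libraries were POLD4, IFI27, SERF2, RPS12, RPS26, RPS23, RPS28, RPL41, ATOX1 and RPL28. Their correlations with the sum ran from 0.18 to 0.21 in CNT and from 0.20 to 0.41 in 3CK. POLD4 was at 0.21 and 0.20, the interferon-induced IFI27 at 0.19 and 0.41, the ribosomal RPS12 at 0.18 and 0.41, and the copper chaperone ATOX1 at 0.18 and 0.34. With MT2A alone, IFI27 was at 0.22 and 0.45 and RPS12 at 0.16 and 0.40. In 3CK, IFI27 was thus within the 0.44 to 0.47 of MT2A with 4 of its paralogs.

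**Figure D5:**
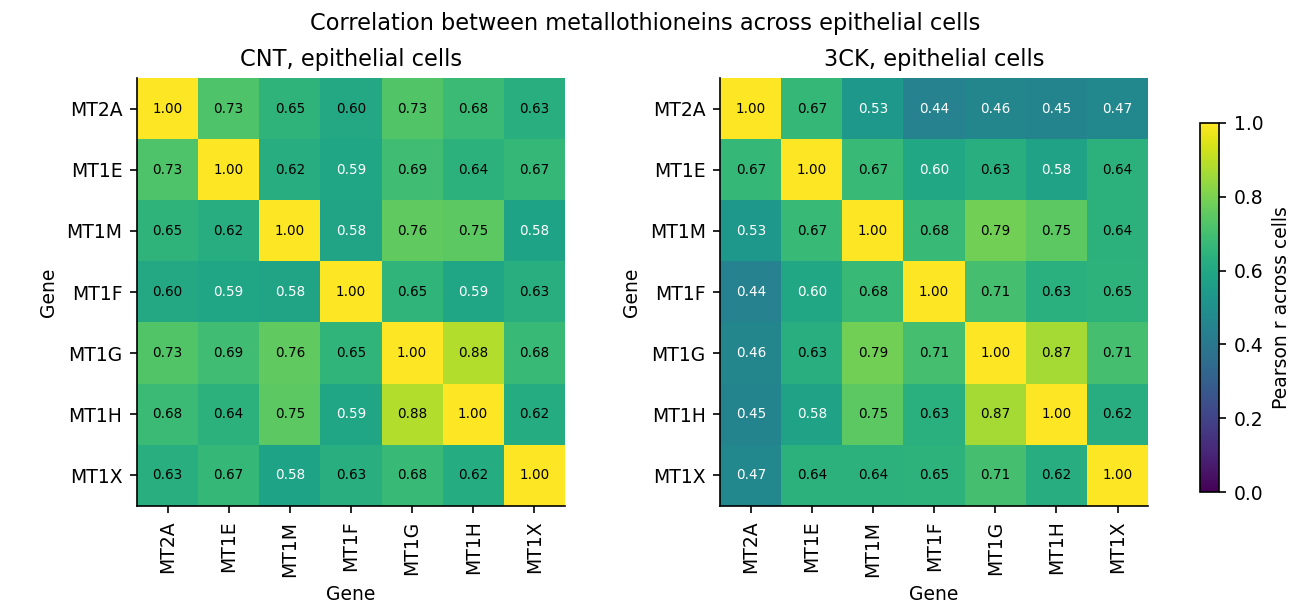
Pearson correlation of log(UMIs + 1) between 7 members across epithelial cells thinned to 10000 UMIs, for 1011 CNT cells (left) and 730 3CK cells (right), coloured from 0 to 1. MT1G and MT1H stand at 0.88 and 0.87, and the MT2A row is lower in 3CK, at 0.44 to 0.67.

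The members were also read along ranges of other markers among epithelial cells. By TTR level, in cells under 10, from 10 to 100, from 100 to 1000 and at 1000 or more UMIs per 10000, there were 22, 169, 1244 and 220 cells in CNT and 59, 442, 497 and 18 in 3CK. In CNT, MT1G was at 43.0, 586, 472 and 583 CPM over these ranges and MT1H at 14.8, 607, 441 and 590 CPM, so that only the 22 cells with the least TTR stood apart and the rest showed no steady order. MT2A was at 438, 617, 325 and 408 CPM. In 3CK, MT1G was at 201, 393, 363 and 1033 CPM, MT1H at 249, 416, 367 and 1335 CPM and MT2A at 1976, 2577, 2439 and 1876 CPM, where the last value of each rests on 18 cells. MT2A was higher in 3CK than in CNT in each of the 4 ranges. In cells with FABP2, a fatty acid binder of absorptive enterocytes, at 5 or more per 10000, MT2A was at 331 CPM in CNT (97 cells) and 873 CPM in 3CK (16 cells), and MT1G at 469 and 136 CPM. In cycling mesenchymal cells, with MKI67 and TOP2A summing to 1 or more per 10000, MT2A was at 620 CPM in CNT (81 cells) and 7435 CPM in 3CK (26 cells), against 355 and 2468 CPM in the others.

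Other genes of zinc and copper handling are given over all kept cells, where the median log2 ratio of the 17523 genes at 1 CPM or more was -0.06, and 6.97% of them were at least 2-fold higher and 11.4% at least 2-fold lower in 3CK. The list counts below are set beside those shares. Of 13 measured zinc importers none was 2-fold higher and 2 were 2-fold lower, with a median of -0.22: SLC39A1 was at 92.7 and 114 CPM (0.30), and SLC39A2 at 5.62 and 0.283 CPM (-4.31). Of 9 zinc exporters none was higher and 2 were lower (median -0.17): SLC30A7 was at 44.1 and 50.3 CPM (0.19), SLC30A4 at 2.51 and 4.17 CPM (0.73), and SLC30A2 was at 6.49 and 1.11 CPM (-2.55). Among 12 copper genes 1 was higher and 1 lower (median 0.18): ATOX1 was at 453 and 628 CPM (0.47), the secreted copper oxidase CP at 0.650 and 13.2 CPM (4.35), and the copper pump ATP7B at 24.2 and 7.17 CPM (-1.76).

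Of 7 factors known to act on metallothionein promoters 2, STAT3 and USF1, were 2-fold higher and none lower (median 0.54), beside 6.97% and 11.4% of all genes at 1 CPM or more. STAT3 was at 64.4 and 159 CPM (1.30), USF2 at 34.3 and 32.2 CPM (-0.09), and MTF1 itself at 11.3 and 16.4 CPM (0.54, 0.43 to 0.66). By class, STAT3 had log2 ratios of 1.61 in epithelial and -0.05 in mesenchymal cells, MTF1 0.73 and -0.34, and USF1 1.22 and 0.92. None of 11 metal and oxidative stress genes was 2-fold higher or lower (median 0.06): TXNRD1 was at 101 and 190 CPM (0.91) and HSPA1A at 25.3 and 16.4 CPM (-0.63). Of 8 glucocorticoid targets none was higher and 1 was lower (median -0.34): DUSP1 was at 92.8 and 118 CPM (0.35) and ZBTB16 at 28.4 and 8.03 CPM (-1.82).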

How the data were processed

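Single-cell RNA libraries of 1 CNT and 1 3CK sample were used. The matrices the authors deposited hold raw UMI counts per gene and barcode, made with Cell Ranger 7.1.0 as the file headers state, with GRCh38 as build per the submitters' processing notes. The annotation release is not given in the sources used here. Barcodes were dropped for fewer than 500 genes (412 CNT, 52 3CK), for over 20% mitochondrial UMIs alone (306, 175), or for the highest Scrublet scores (scanpy 1.11.5) at 0.8% per 1000 barcodes (52, 16). Kept UMIs were 101582054 and 91863865. UMIs were summed per library and class. Log2 ratios of CPM carry exact binomial intervals, levels exact Poisson intervals (95%), and a count of 0 was set to a floor of 3 UMIs. Cells were thinned to 5000 or 10000 UMIs for shares and correlations. With 1 library per condition no test was made. The ratio and its interval were tested on simulated Poisson counts only. Those lack the uneven spread of UMIs over cells, so the intervals were not tested for it. The members and gene lists were chosen with earlier results of these data known. All 9 members are named, and of each list the gene with the highest CPM and those with the largest and smallest ratio. TMM factors came from edgeR 4.0.16. Alternatives varied cell filters, doublets, depth, scaling, weighting and class thresholds. Promoters were read from a RefSeq table, gene positions from GENCODE.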

Additional observations from a re-analysis of the deposited data

Results flagged for a closer look

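MT1F and MT1X were on opposite sides of 0 in the 2 cell classes. For MT1F the mesenchymal minus the epithelial log2 ratio of 3CK over CNT was 2.28 (2.05 to 2.52, counting error only), from 2.03 in mesenchymal and -0.26 in epithelial cells. For MT1X it was 1.15 (0.98 to 1.32), from 0.93 and -0.22. The mesenchymal values depended on few cells and on the weighting. In 3CK, 6 of 124 mesenchymal cells held 50% of the MT1F UMIs. With equal weight per cell the mesenchymal log2 ratios were 0.11 for MT1F and 0.19 for MT1X. With 1 library per condition neither difference between the classes was tested.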

How the results depend on the processing

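The log2 ratio of the summed metallothioneins was above 0 under every alternative run in all kept, epithelial and mesenchymal cells. Its values, in that order, were 1.36, 1.05 and 2.91 with a stricter filter, 1.45, 1.07 and 3.13 with TMM factors, 1.27, 0.93 and 2.90 with a total without mitochondrial, ribosomal and the 50 most abundant genes, and 1.25, 0.95 and 1.92 with equal weight per cell. Without the top 1% of cells, an alternative chosen after seeing the data, they were 1.82, 1.35 and 2.71. In all kept and epithelial cells they were 1.38 and 1.05 without doublet removal, and 1.44 and 1.12 at a doublet rate of 5%. With only cells of at least 10000 UMIs the mesenchymal value was 2.99, and stricter class thresholds gave 1.06 in epithelial and 3.10 in mesenchymal cells. MT1B over all kept cells turned from -1.26 to 0.50 with equal weight per cell; the cause was not tested. TMM factors moved the log2 ratio of every gene by 0.18 in mesenchymal cells and 0.09 in all kept cells, and the other total moved it by -0.11 in epithelial cells. No filter on cells left the summed values within their counting intervals. In all kept, epithelial and mesenchymal cells MT2A, MT1E, MT1M and MT1A stayed above 0 and epithelial MT1B, MT1F, MT1G, MT1H and MT1X below 0 under every alternative run. Some values came close to 0. Without the top 1% of cells epithelial MT1A was at 0.04 and MT1H at -0.01, and with equal weight per cell epithelial MT1B was at -0.08. No paired analysis was possible because each group has 1 library. Depth limits MT1A in both classes and MT1B, MT1G and MT1H in mesenchymal cells, which rest on few UMIs.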
